A study of Mus musculus with 2 samples.

Results

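The genes described here build and serve the cilium. They are 53 of the 27998 genes in the matrix, taken by symbol: all genes named Ift, Bbs or Cfap followed by a number, and Ccdc153, Mns1, Mlf1, Foxj1 and Dynlrb2. By role they comprise 11 genes of the intraflagellar transport (IFT) complex B, 3 of IFT complex A, 8 Bardet-Biedl syndrome (BBS) genes, 25 Cfap genes (cilia and flagella associated proteins) and 5 other genes of motile cilia. The last of the 53 is Ift88os, an RNA antisense to Ift88, for which no value is read because antisense reads cannot be told from those of its partner without knowing how strand was counted. Below, the 22 IFT and BBS genes are called transport genes. The 27 motile cilium genes are the Cfap and other motile genes without Cfap20, Cfap36 and Cfap97, which many cell types use.

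The cells came from the lateral subventricular zone, the stem cell niche along the lateral ventricle, of male C57BL/6 mice. One pool was from 8 mice aged 22 months and the other from 4 mice aged 2 months, each giving 1 Chromium 3′ library from 8000 sorted events. In both pools, cells positive for GLAST, a glutamate transporter of astrocytes and stem cells, and negative for O4, Ter119 and CD45 had been sorted. The matrix marks the libraries by a barcode suffix, and no label ties a suffix to an age. The libraries are therefore called library 2 and library 1, no age is assigned to either, and a difference between them cannot be told apart from a difference between pools, sorts or preparations. With 1 library each, no test was made and the 95% intervals below cover counting error only.

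IFT trains carry cargo along the ciliary microtubules: complex B works with kinesin-2 on the way to the tip, and complex A with dynein-2 on the way back. The BBSome, a coat-like complex of BBS proteins, moves membrane proteins in and out of the cilium. In this niche quiescent stem cells carry a primary cilium, which lacks the dynein arms and central pair of motile cilia, and ependymal cells lining the ventricle carry tufts of motile cilia. Foxj1 is the transcription factor that switches on the motile cilium genes, and RFX factors act on promoters of both kinds of ciliary gene.

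Library 2 had 2064 kept cells and library 1 had 1825, with medians of 5763 and 4463 unique molecular identifiers (UMIs, each a captured transcript) per barcode. The libraries shared 4 barcode sequences. Clusters made without the cilium genes were named from cell type markers, and 3 of them formed the quiescent or astrocyte-like class (582 cells of library 2, 709 of library 1). Of these, cluster 0 was led by Cxcl14, Slc7a10 and Htra1, cluster 5 by Gfap, S100a6 and Thbs4, and cluster 8 by Prss56, Notum and Thrsp. Activated or transit amplifying-like cells numbered 337 in library 2 and 194 in library 1, and neuroblast-like cells 492 and 362. Ependymal-like cells were rare, at 13 in library 2 and 3 in library 1. Cluster 3, led by the stress response genes Junb, Socs3 and Cyr61, stayed unnamed (140 and 210 cells).

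Promoters of the 3 genes with the highest library 2 over library 1 ratios among those with at least 50 UMIs in quiescent cells (Cfap126, Mlf1 and Mns1), and of Ift27, the transport gene with the most UMIs, are printed so that the promoters of genes that differed can be set beside that of a gene that hardly differed. Each window runs from 250 bases before to 50 after the start of the gene in RefSeq (GRCm38.p6), 5′ to 3′ on the strand of the gene. Cfap126 has 3 windows, and the one nearest the gene start in GENCODE is shown. Capitals mark matches to an RFX half-site (GTTGCCA on either strand) or a forkhead site (TGTTTAC on either strand). The windows are chr1:171113736-171114035 (+), chr3:67373847-67374146 (+), chr9:72438279-72438578 (+) and chr15:78174032-78174331 (-).
Cfap126: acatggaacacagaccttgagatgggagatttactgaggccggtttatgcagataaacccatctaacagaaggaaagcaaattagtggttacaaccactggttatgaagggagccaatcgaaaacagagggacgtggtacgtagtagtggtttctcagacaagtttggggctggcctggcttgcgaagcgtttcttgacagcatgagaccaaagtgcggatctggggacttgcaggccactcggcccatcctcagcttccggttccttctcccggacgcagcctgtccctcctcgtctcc
Mlf1: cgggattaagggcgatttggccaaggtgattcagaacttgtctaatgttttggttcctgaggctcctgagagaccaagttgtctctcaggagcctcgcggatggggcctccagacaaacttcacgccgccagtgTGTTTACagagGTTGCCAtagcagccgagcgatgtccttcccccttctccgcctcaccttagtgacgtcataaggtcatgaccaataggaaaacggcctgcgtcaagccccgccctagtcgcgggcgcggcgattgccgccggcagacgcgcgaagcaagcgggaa
Mns1: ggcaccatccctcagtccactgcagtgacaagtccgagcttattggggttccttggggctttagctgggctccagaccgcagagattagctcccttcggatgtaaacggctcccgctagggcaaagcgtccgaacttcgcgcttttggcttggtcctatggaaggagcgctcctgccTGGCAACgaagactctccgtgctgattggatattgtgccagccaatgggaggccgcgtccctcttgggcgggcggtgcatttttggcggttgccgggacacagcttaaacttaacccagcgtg
Ift27: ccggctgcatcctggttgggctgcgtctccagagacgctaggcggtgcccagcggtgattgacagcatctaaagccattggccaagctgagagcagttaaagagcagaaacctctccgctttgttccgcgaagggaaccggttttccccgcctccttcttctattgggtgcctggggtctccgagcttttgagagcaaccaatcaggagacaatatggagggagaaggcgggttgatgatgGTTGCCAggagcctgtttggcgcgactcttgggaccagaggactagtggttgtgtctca

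Mlf1 held a forkhead site that began 116 bases before the start and an RFX half-site that began 105 bases before it. The RFX half-site of Mns1 began 73 bases before the start, and that of Ift27 began 9 bases before it. Neither motif was in the Cfap126 window, nor in that of Dynlrb2, whose ratio is above that of Mns1 on fewer than 50 UMIs. A RefSeq window was matched for 43 of the 53 genes. The RFX half-site was in 10 of these 43 windows (23.3%), against 4.38% of all 32851 windows, and the forkhead site in 3 (6.98%), against 3.65% of all windows. Among motile cilium genes 6 of 22 windows held the RFX half-site, and among transport genes 3 of 19. The transport genes with an RFX half-site were Ift88, Ift27 and Bbs1. These matches describe the letters and are not evidence of binding.

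Across the kept cells the genes gave 19953 UMIs, of which 13245 came from transport genes and 2987 from motile cilium genes. A UMI was found for 52 of the 53, with Cfap58 at 0, and 31 genes had at least 100. Levels below are CPM, the UMIs of a gene per 1e6 UMIs of a class. Because each UMI marks a transcript's 3′ end, the level is not scaled by gene length. In quiescent cells the highest were Ift27 (113.5 CPM in library 2 and 105.5 in library 1) and Ift20 (101.2 and 98.4), which encode a Rab-like GTPase and a Golgi-linked subunit of complex B. Cfap20, a protein of the doublet microtubule junction, stood beside them at 104.3 CPM in library 2 and 92.4 in library 1. Ift22, another Rab-like GTPase, had 90.3 CPM in library 2 and 62.2 in library 1. Cfap36, a partner of the GTPase Arl3, had 75.8 and 67.1, Ift43 73.2 and 48.5, and Ift57 71.0 and 73.8. The BBS genes with most UMIs were Bbs4, at 25.9 CPM in library 2 and 16.8 in library 1, and Bbs2, at 30.2 and 23.9. The highest motile gene in library 2 was Mns1, at 32.9 CPM.

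**Figure D1:**
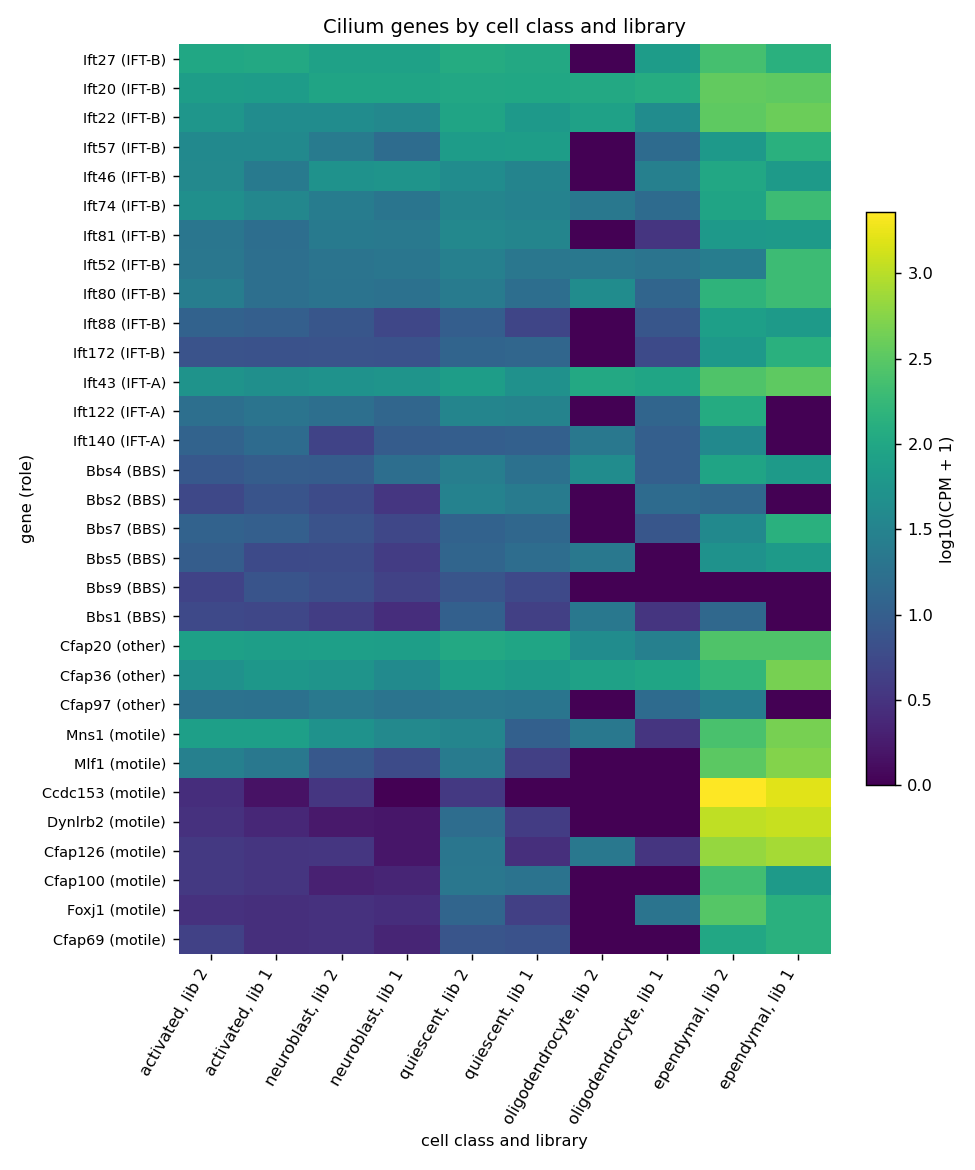
Level of the 31 genes with at least 100 UMIs, as log10(CPM + 1) by colour, in 5 cell classes (lib, library; other, broadly used Cfap genes). Ift20, Ift27 and Cfap20 are bright in the activated, neuroblast and quiescent columns, Mns1 is brighter in activated than in quiescent cells, and the motile rows at the bottom are brightest in ependymal-like cells.

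Ependymal-like cells, few as they were, held both gene groups at their highest class levels in these libraries. The motile genes summed to 6984.2 CPM in library 2 and 7556.5 in library 1, and the transport genes to 2183.4 and 2541.1. Ccdc153 had 2272.7 CPM in library 2 and 1604.9 in library 1 and was seen in all 13 and 3 cells. Dynlrb2 had 1072.5 CPM in library 2 and 1203.7 in library 1, Cfap126 676.7 and 802.5, and Foxj1 293.7 and 133.7, the last on 23 and 2 UMIs. With 547 and 113 motile UMIs in all, these levels have wide intervals, 6411.1 to 7594.8 CPM in library 2 and 6227.6 to 9085.0 in library 1.

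The first comparison sets library 2 against library 1 within quiescent or astrocyte-like cells. Motile cilium genes were higher in library 2, and transport genes were near their level in library 1. Summed over the 27 motile genes the level was 191.5 CPM in library 2 (437 UMIs) and 70.1 CPM in library 1 (188 UMIs), a ratio of 2.73 (interval 2.30 to 3.26). Summed over the 22 transport genes it was 776.1 CPM in library 2 and 661.3 CPM in library 1, a ratio of 1.17 (1.10 to 1.25). The intervals of these ratios do not overlap.

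Cfap126, which in mouse places basal bodies in multiciliated cells, had 19.7 CPM in library 2 (45 UMIs in 35 cells) and 1.86 CPM in library 1 (5 UMIs in 5 cells), 10.6-fold higher (4.21 to 34.2), or 5.68-fold with cluster 3 added to the class. Mlf1, first known from a leukaemia fusion, had 24.1 CPM in library 2 (55 UMIs) and 3.35 in library 1 (9 UMIs), 7.19-fold higher, or 2.95-fold when clusters were made at Leiden resolution 2. Dynlrb2, a dynein light chain, had 14.9 CPM in library 2 (34 UMIs) and 2.98 in library 1 (8 UMIs), 5.0-fold higher. Each of the 3 had at most 9 UMIs in library 1, from more cells of the class than in library 2. Foxj1 had 11.4 CPM in library 2 (26 UMIs) and 3.35 in library 1 (9 UMIs), 3.40-fold higher, but at Leiden resolution 2 the ratio was 1.39 on 23 and 21 UMIs, under 1.5-fold. Mns1, an inner protein of the axonemal microtubules, had 32.9 CPM in library 2 (75 UMIs) and 9.69 in library 1 (26 UMIs), 3.39-fold higher with an interval of 2.15 to 5.52. Cfap54, of the central apparatus, and Cfap44, of the axoneme, were 2.94-fold and 2.26-fold higher on 21 and 38 UMIs. Both fell under 20 UMIs without cluster 5, so no ratio was read there. Cfap54 also did so with cells thinned and without cells that had at least 5 motile UMIs. Cfap46, also of the central apparatus, had 7.45 CPM in library 2 and 4.85 in library 1, with an interval of its ratio that includes 1, and a ratio of 1.38 with marked doublets kept. Not every motile gene followed. Cfap100, whose Chlamydomonas counterpart regulates inner dynein arms, had 20.6 CPM in library 2 and 17.9 in library 1, and Cfap69 had 6.57 and 5.96.

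Among transport genes the ratio was past 1.5-fold for Bbs1 (9.64 CPM in library 2, 3.35 in library 1), Ift88 (9.20 and 4.10), Ift80 (24.1 and 15.3), Bbs4 and Ift43 (73.2 and 48.5). Bbs1 and Bbs4 encode BBSome subunits, Ift88 and Ift80 are complex B subunits and Ift43 is a complex A subunit. All but Bbs1 lost the 1.5-fold call under an alternative: without cluster 5 the ratio was 1.16 for Bbs4 and 1.11 for Ift43, and with cluster 3 added it was 1.27 for Ift88 and 1.36 for Ift80. Bbs1, on 22 UMIs in library 2 and 9 in library 1, fell under 20 UMIs without cluster 5 and with cells thinned. Its ratio was therefore not read in those settings. Ift27, Ift20, Ift122 and Ift57 had ratios between 0.962 and 1.08. The lowest ratios were those of Bbs5, at 0.764 (0.448 to 1.28), and Bbs10, a chaperonin-like assembly factor, at 0.818. Both intervals include 1.

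Of the 53 genes, 35 had at least 20 UMIs over both libraries in this class. Their median log2 ratio was 0.34 (0.13 to 0.62), beside -0.003 over the 10885 genes measured. At least 1.5-fold higher in library 2 were 13 of the 35, where the background is 8.80% of all genes, and at least 1.5-fold lower were 0, where it is 8.31%. The median was 1.56 over 11 of the 27 motile genes and 0.16 over 21 of the 22 transport genes. The remaining 18 genes had 75 UMIs in library 2 and 28 in library 1, none more than 13 in all. Of these, 13 had the higher CPM in library 2, 2 the lower, and 3 had no UMI in either.

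**Figure D2:**
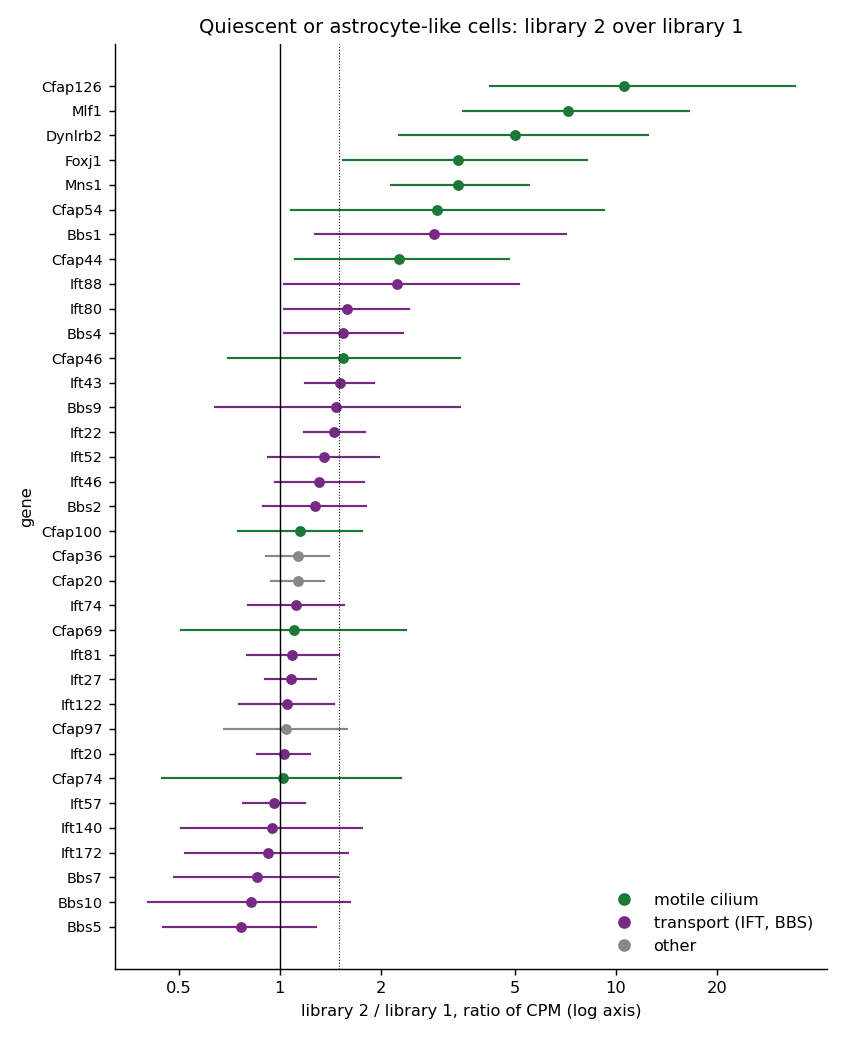
Ratio of CPM, library 2 over library 1, in quiescent or astrocyte-like cells for the 35 genes with at least 20 UMIs (log axis; bars, exact 95% intervals for counting error; dotted line, 1.5-fold). Cfap126, Mlf1 and Dynlrb2 lie farthest right at 10.6, 7.19 and 5.0, and most transport genes lie near 1.

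Cluster 5 carried much of this. It held 214 cells of library 2 and 69 of library 1, so a cluster mostly of library 2 may also be that library. Its motile genes summed to 362.3 CPM in library 2, against 82.0 in cluster 0 of the same library, a ratio of 4.42 (3.46 to 5.70). In library 1 they summed to 209.2 CPM in cluster 5, against 60.6 in cluster 0, a ratio of 3.45 (2.39 to 4.93). Transport genes were 1.51-fold and 1.23-fold higher in cluster 5 than in cluster 0 in library 2 and library 1. Mlf1 had 49.5 CPM in cluster 5 of library 2 (40 UMIs) and 1.95 in cluster 0 (2 UMIs). Cfap126 had 43.3 CPM in cluster 5 and 6.83 in cluster 0, and Dynlrb2 32.2 and 6.83. Mns1 had 53.2 CPM in cluster 5 and 13.7 in cluster 0, and Cfap44 22.3 and 5.85. Ift43 and Ift22 also stood higher in cluster 5 of library 2, at 110.1 and 119.9 CPM, against 45.9 and 61.5 in cluster 0. Ift27 did not, at 110.1 CPM in cluster 5 and 126.8 in cluster 0. These gene values are of library 2. In library 1 Ift22 was 1.72-fold higher in cluster 5 (1.03 to 2.75). Ift43 was 1.17-fold higher (0.60 to 2.12) and Mns1 1.87-fold (0.456 to 5.81, 4 UMIs in cluster 5), both with intervals that include 1. Cfap126, Mlf1 and Dynlrb2 had 2, 5 and 5 UMIs in cluster 5 of library 1, too few for a ratio.

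Markers of other cells were read in the same clusters. The 13 ependymal markers summed to 589.9 CPM in cluster 5 (2 at 0) and 284.9 in cluster 0 (5 at 0) of library 2, and to 552.0 (6 at 0) and 297.5 (5 at 0) in library 1. Ependymal genes outside the cilium, a list of 10 that includes Dbi, Vim and S100b, summed 2.02-fold higher in cluster 5 than in cluster 0 in library 2 and 1.3-fold higher in library 1. The 8 mural markers summed to 325.2 CPM in cluster 5 (3 at 0) and 209.8 in cluster 0 (1 at 0) of library 2, and to 111.3 (6 at 0) and 114.0 (5 at 0) in library 1. Their part in the cluster difference was not tested.

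In library 2 the distance of cluster 8 from cluster 5 differed by gene. There Mns1 had 53.2 CPM in cluster 5 and 40.2 in cluster 8, and Foxj1 16.1 and 22.3. Cfap126 had 43.3 CPM in cluster 5 and 6.69 in cluster 8, and Dynlrb2 32.2 and 2.23. Of the 18 Mns1 and 10 Foxj1 UMIs in cluster 8, 9 and 5 came from 5 cells. Their median was 14559 UMIs, against 5293.5 in the other 66. The Mns1 and Foxj1 ratios have intervals that include 1. In library 1 Mns1 had 4 UMIs in cluster 5 and 6 in cluster 8, and Foxj1 2 and 5, too few for a ratio. The order of the motile sum in library 2 was cluster 5, then cluster 3 (195.5 CPM), cluster 8 (133.9) and cluster 0 (82.0). In library 1 it was cluster 5, then cluster 3 (86.2), cluster 0 (60.6) and cluster 8 (50.4), and the intervals of the last 2 overlap.

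Within each cluster the motile sum was still higher in library 2 than in library 1: 1.35-fold (1.00 to 1.82) in cluster 0, 1.73-fold (1.27 to 2.41) in cluster 5, 2.66-fold (1.75 to 4.09) in cluster 8 and 2.27-fold (1.76 to 2.92) in cluster 3. In cluster 8, 5 cells of library 2 gave 30 of its 60 motile UMIs. Without cells that had at least 5 motile UMIs the ratio there was 1.58 (0.949 to 2.61), and without Mns1 and Mlf1 it was 1.67 (0.967 to 2.88), both with intervals that include 1. In cluster 0 the ratio without Mns1 and Mlf1 was 1.31 (0.941 to 1.83), with an interval that also includes 1. It was 1.54 (1.08 to 2.23) in cluster 5 and 2.27 (1.67 to 3.11) in cluster 3. The 5 cells were picked by the UMIs compared, and all were of library 2. Leaving them out therefore lowers the ratio by construction. Cfap126 had 35 UMIs in library 2 and 2 in library 1 in cluster 5, a ratio of 4.86 (1.25 to 41.7), smaller than over the class. Without cluster 5, 4 genes were at least 1.5-fold higher, with no share of all genes to set beside that count. The median log2 ratio of the 26 cilium genes then measured was 0.09, beside -0.027 over all genes. Of these 26, 4 were motile cilium genes, and their median was 0.64. Cfap126, Mlf1 and Dynlrb2, with the highest ratios over the class, had too few UMIs left to be measured. Neither median therefore covers them.

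**Figure D3:**
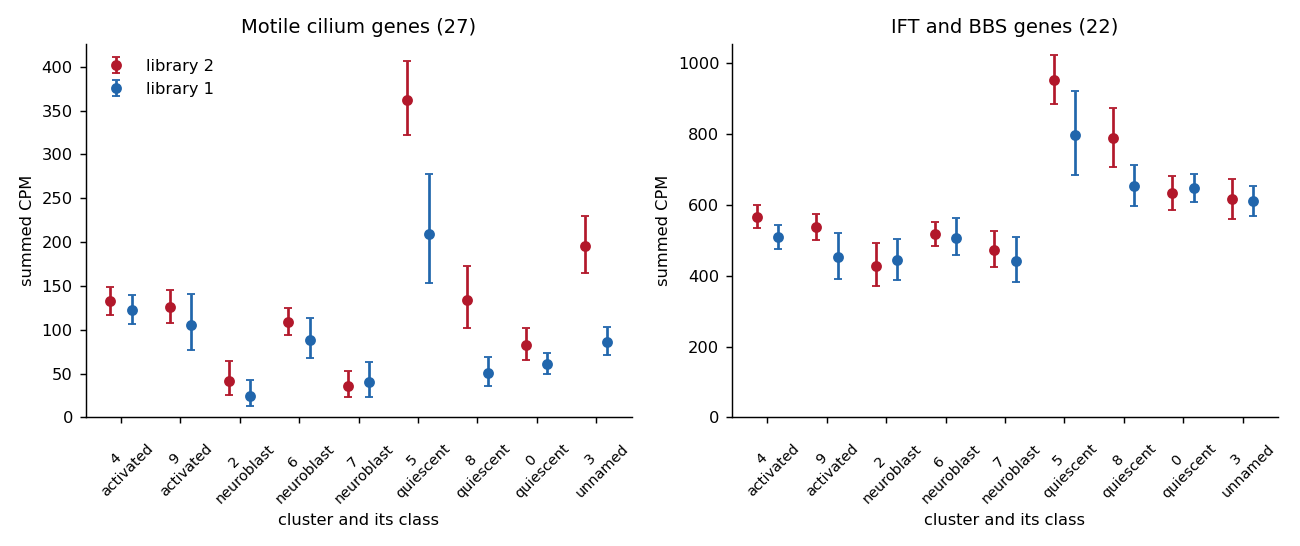
Summed CPM of the motile cilium genes (left) and the IFT and BBS genes (right) in clusters of activated, neuroblast and quiescent classes and in unnamed cluster 3, for both libraries (bars, exact 95% Poisson intervals). Cluster 5 is highest in both panels, and the motile sums of library 2 and library 1 are close in the activated clusters 4 and 9.

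Markers of other cells also differed between the libraries, and not all in the same direction. In quiescent cells the 13 ependymal markers, 9 of which also stand in the lists of axoneme genes, summed to 360.2 CPM in library 2 (1 at 0) and 268.0 in library 1 (5 at 0). Gene by gene the difference was larger than in the sum. All 6 markers measured were higher in library 2, and 4 were at least 1.5-fold higher, beside 8.80% of all genes. The median log2 ratio of these 6 was 1.18 (0.13 to 2.65). The 13 markers summed to 11197.7 CPM in ependymal-like cells of library 2 and 9830.1 in those of library 1. In oligodendrocyte-like cells they summed to 1148.4 CPM in library 2 (12 at 0, so 1 marker gave the whole sum) and 1184.1 in library 1 (10 at 0). Within clusters 5, 0 and 8 they summed to 589.9, 284.9 and 118.2 CPM in library 2. In library 1 these sums were 552.0, 297.5 and 121.4. The 8 mural markers summed to 221.8 CPM in library 2 (1 at 0) and 93.9 in library 1 (5 at 0). The 11 oligodendrocyte markers, all detected, summed to 236.2 CPM in library 2 and 553.2 in library 1. Their part in the result was not tested. Ccdc153, a subunit of the dynein regulatory complex, was the leading motile gene of ependymal-like cells, with 32.5% of their motile UMIs in library 2 and 21.2% in library 1. In quiescent cells it gave 6 UMIs in library 2 and 0 in library 1, where the floor of 3 UMIs stands at 1.12 CPM. Tmem212, the other defining ependymal gene, gave 2 UMIs in quiescent cells of library 2 and 0 in library 1, and 123 and 18 UMIs in ependymal-like cells.

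**Figure D4:**
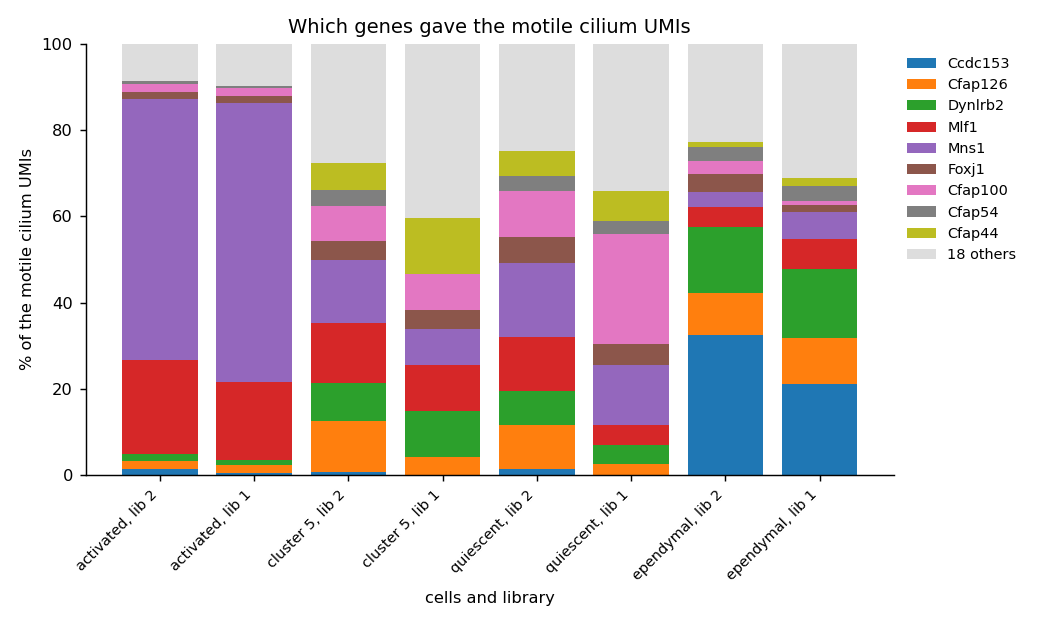
Share of motile cilium UMIs given by each gene (percent) in activated cells, cluster 5, all quiescent cells and ependymal-like cells of both libraries. Mns1 fills 60.6% and 64.8% of the activated bars of library 2 and library 1, and Ccdc153 is large in the ependymal-like bars, at 32.5% and 21.2%, and thin or absent elsewhere.

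By cell, 39.5% of quiescent cells in library 2 (35.5 to 43.6, exact Clopper-Pearson) and 20.2% in library 1 (17.3 to 23.3) had a motile gene UMI. After thinning each cell to 2000 UMIs, which left out 35 and 78 cells, the shares were 25.6% and 13.2%. In neuroblasts, which should lack motile cilia, the thinned shares were 11.5% (8.79 to 14.7) in library 2 and 10.2% (7.2 to 14.0) in library 1, with medians of 5027.5 and 3531.5 UMIs, and the interval of the share of quiescent cells in library 1 overlaps both of theirs. The neuroblast shares are no pure background, since Mns1 and Mlf1 gave 72.6% and 74.5% of their motile UMIs. In oligodendrocyte-like cells of library 1 the thinned share was 7.61% (3.11 to 15.1), and Foxj1 gave 8 of their 13 motile UMIs before thinning. In cluster 5 the thinned share was 45.3% in library 2 and 33.9% in library 1. At least 5 motile UMIs were found in 16 quiescent cells of library 2, 11 of them in cluster 5 and 5 in cluster 8, and in 0 of library 1. The 11 cells of cluster 5 held 0 Ccdc153 and 0 Tmem212 UMIs, 13 of Cfap126 and 16 of Rarres2, a secreted protein. Their 13 ependymal markers summed to 1177.9 CPM, against 544.6 in the other 203 cells of cluster 5 in library 2, and the part of ependymal RNA was not tested. Cfap126 is one of the genes that picked these 11 cells, so its count there follows in part from the choice. Leaving out all quiescent cells with at least 5 motile UMIs gave a Cfap126 ratio of 7.48 and a Mlf1 ratio of 5.40. All were of library 2, a choice that by itself lowers these ratios.

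The same comparison was made in activated cells and in neuroblasts. In activated cells the motile sum was 129.4 CPM in library 2 and 119.0 in library 1, a ratio of 1.09 (0.930 to 1.27). Of 27 genes measured, 4 were at least 1.5-fold higher in library 2 (Bbs12, Bbs5, Ift46 and Ift80), beside 6.13% of all genes, and 2 lower (Bbs2 and Bbs9), beside 8.19%. In neuroblasts the motile sum was 80.0 CPM in library 2 and 56.2 in library 1, a ratio of 1.42 (1.12 to 1.83), and 23 genes were measured, with 4 higher in library 2 (Ift88, Ift57, Mlf1 and Bbs9), beside 6.72% of all genes, and 2 lower (Bbs4 and Ift140), beside 9.99%. The median log2 ratio was 0.10 in activated cells and 0.11 in neuroblasts. Whether the library difference itself differed between classes was not tested.

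The second comparison sets activated cells against quiescent cells within each library. Most cilium genes took a smaller part of the transcripts in activated cells, with Mns1 as the clearest exception. Transport genes summed to 554.3 CPM in activated cells and 776.1 in quiescent cells of library 2, and to 497.1 and 661.3 in library 1. Activated cells were deeper, with medians of 10617 UMIs in activated and 3544.5 in quiescent cells of library 2, so the transport genes averaged 5.77 UMIs per activated cell and 3.04 per quiescent cell there, and 5.51 and 2.5 in library 1. CPM is a share of a cell's transcripts, and by UMIs per cell the order was the opposite in both libraries.

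Some of the lowest ratios were of BBS genes. Bbs2, a BBSome subunit, had 4.28 CPM in activated and 30.2 in quiescent cells of library 2, and 6.51 and 23.9 in library 1. Bbs4 had 7.41 CPM in activated and 25.9 in quiescent cells of library 2, and 8.84 and 16.8 in library 1. Both were lower in activated cells of both libraries. Cfap100 had 2.57 CPM in activated and 20.6 in quiescent cells of library 2, and 2.33 and 17.9 in library 1. Cfap44 had 0 UMIs in activated cells of both libraries and 11.0 and 4.85 CPM in quiescent cells of library 2 and library 1, at least 12.8-fold lower in library 2 against a floor of 3 UMIs over the class. In complex B, Ift57 had 38.2 CPM in activated and 71.0 in quiescent cells of library 2, and 38.1 and 73.8 in library 1. Ift27 hardly moved, at 99.5 CPM in activated and 113.5 in quiescent cells of library 2, and 105.6 and 105.5 in library 1.

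Mns1 ran the other way. It had 78.4 CPM in activated and 32.9 in quiescent cells of library 2, 2.38-fold higher (1.84 to 3.12), and 77.2 and 9.69 in library 1, 7.97-fold higher (5.25 to 12.6). The activated levels were alike, and the quiescent level was what differed between libraries. Mlf1 had 28.2 CPM in activated and 24.1 in quiescent cells of library 2, and 21.4 and 3.35 in library 1. Mns1 and Mlf1 gave 82.4% of motile UMIs in activated cells of library 2 and 82.8% in library 1. Without them the motile sum was 22.8 CPM in activated and 134.5 in quiescent cells of library 2, and 20.5 and 57.0 in library 1. Mns1 was also high in cluster 6, the neuroblast cluster led by the mitotic genes Nusap1 and Ube2c, at 76.3 CPM in library 2 and 76.1 in library 1. In neuroblast cluster 2 it had 10.4 and 5.74 CPM, and in cluster 7 it had 14.3 and 9.37.

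Of 34 genes measured in library 2, 2 were at least 1.5-fold higher in activated cells, where the background is 29.4% of all genes, and 17 at least 1.5-fold lower, where it is 32.7%. In library 1, 3 of 28 were higher, beside 32.3%, and 12 lower, beside 33.4%. The median log2 ratio was -0.58 (-0.94 to -0.19) in library 2 and -0.45 (-0.95 to -0.06) in library 1, with all genes at -0.001 and 0.007.

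Neuroblasts against quiescent cells gave the same general order, with both comparisons sharing their quiescent cells. Of 34 genes measured in library 2, 1 was at least 1.5-fold higher in neuroblasts (Mns1), beside 31.4% of all genes, and 20 lower, beside 33.3%. In library 1, 2 of 23 were higher (Mns1 and Ift46), beside 32.0%, and 12 lower, beside 33.8%. Cfap100 had 1.03 CPM in neuroblasts and 20.6 in quiescent cells of library 2, and 1.2 and 17.9 in library 1. Ift57 had 23.6 CPM in neuroblasts and 71.0 in quiescent cells of library 2, and 14.4 and 73.8 in library 1. Ift46, of complex B, had 51.0 CPM in neuroblasts and 41.6 in quiescent cells of library 2, and 53.8 and 31.7 in library 1. The BBS genes summed to 35.6 CPM in neuroblasts and 103.4 in quiescent cells of library 2, and to 35.3 and 86.9 in library 1.

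**Figure D5:**
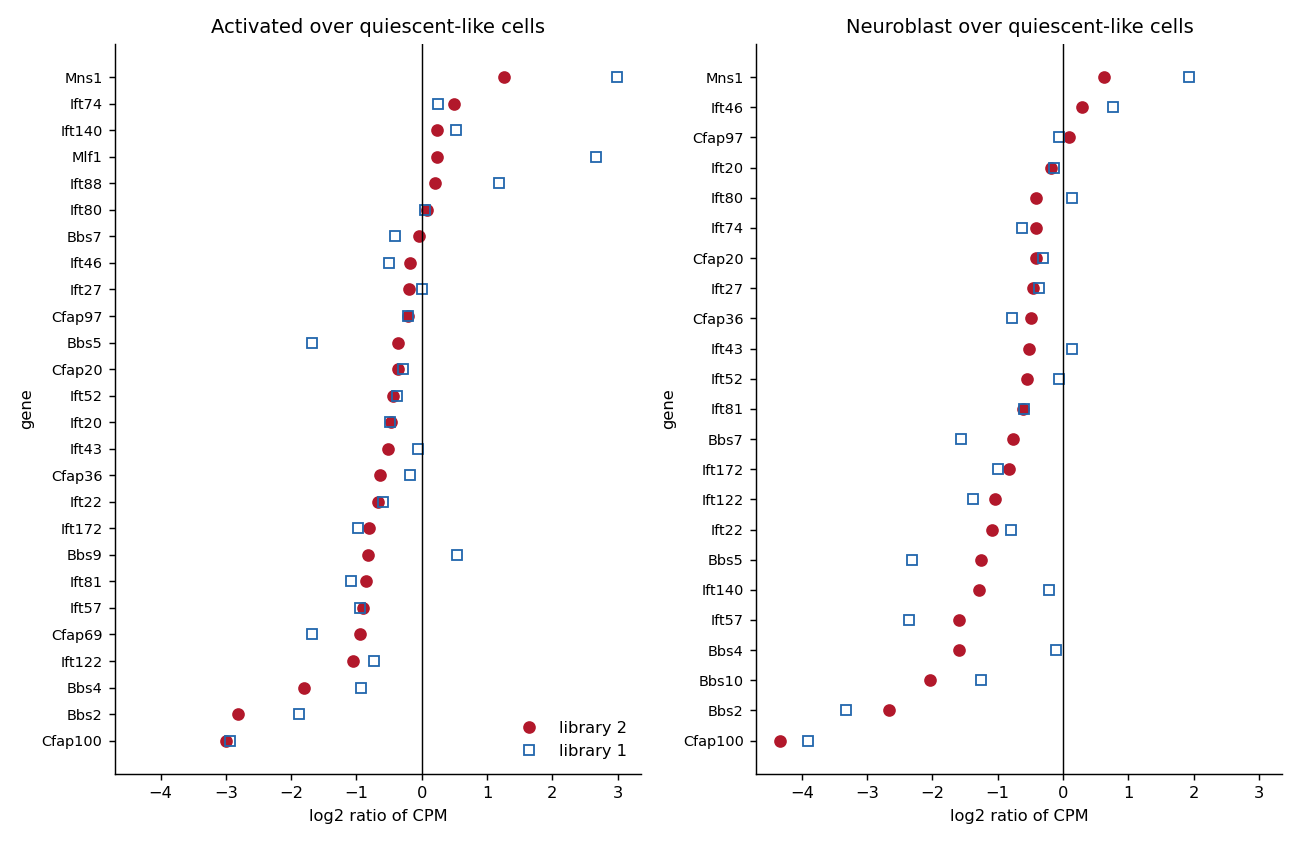
Log2 ratio of CPM, activated over quiescent-like cells (left) and neuroblast over quiescent-like cells (right), for genes measured in both libraries (red, library 2; blue squares, library 1). Mns1 is at the right end of both panels, and Bbs2 and Cfap100 are at the left end.

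Other ciliary genes, from lists of components that carry other symbols, were read in quiescent cells beside the 53, with 8.80% of all genes at least 1.5-fold higher in library 2 as the background of each count. Of 25 radial spoke, central pair, dynein regulatory and tektin genes 13 were measured and 9 had at least 1.5 times the CPM in library 2, the median log2 ratio being 1.23. Lrriq1 had 11.8 CPM in library 2 and 1.49 in library 1, Tekt1, a tektin of the doublet microtubules, 31.1 and 14.2, and Rsph3a, a radial spoke gene, 10.1 and 12.3. Among genes of axonemal dyneins, their assembly factors and docking, 2 of 12 measured were at least 1.5-fold higher. They were Dnah7a (22.4 CPM in library 2, 8.95 in library 1) and Ccdc103 (9.20 and 1.86). Among IFT components under other symbols 3 of 8 were at least 1.5-fold higher, with Ttc21b, of complex A, at 8.33 CPM in library 2 and 3.35 in library 1. Medians near the background were found for IFT motors (0.03, 11 genes), primary cilium membrane proteins (0.02, 8 genes) and Hedgehog signalling genes (-0.14, 11 genes). Transition zone genes (13 measured) and BBSome partners under other symbols (11 measured) had medians of 0.18 and 0.23. In the transition zone, B9d1 had 73.2 CPM in library 2 and 45.8 in library 1. Gli1, a Hedgehog target, had 6.57 CPM in library 2 and 13.4 in library 1. The radial spoke, central pair, dynein regulatory and tektin list was also read in activated over quiescent cells. All 12 of its genes measured in library 2 were at least 1.5-fold lower, beside 32.7% of all genes. In library 1 this held for 6 of 7, beside 33.4%.

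The RFX factors Rfx3 and Rfx4 did not follow the motile genes between libraries. They belong to a list of 18 multiciliation and ciliary transcription factor genes, of which 10 were measured in quiescent cells. The median log2 ratio of that list was -0.12. In library 2, 1 was at least 1.5-fold higher, beside 8.80% of all genes, and 1 lower, beside 8.31%. Other RFX genes of the list are not read singly. Rfx4 had 81.5 CPM in quiescent cells of library 2 and 85.4 in library 1, and Rfx3 had 50.8 and 55.5. Between classes, Rfx4 had 20.8 CPM in activated and 81.5 in quiescent cells of library 2, and 26.0 and 85.4 in library 1. Rfx3 had 44.2 CPM in activated and 50.8 in quiescent cells of library 2, and 46.0 and 55.5 in library 1.

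The genes outside these lists whose level across clusters was most like the motile sum were Tmem107, 9530077C05Rik, Hspb6 and Tubb4b, with Pearson r of log2(CPM + 10) of 0.821, 0.810, 0.803 and 0.783 over 26 points. The points are clusters with at least 30 cells in a library, so they share library and depth, and the ependymal-like cluster is not among them. The other 6 of the 10 most alike, Lage3, Hspa4l, Chchd6, D3Ertd751e, Rp2 and Ifitm2, had r from 0.749 to 0.782. Among these points, each of the 10 was highest in cluster 5.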

How the data were processed

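Single-cell RNA sequencing gave 1 matrix for both libraries. The deposited values are raw UMI counts in whole numbers, not normalized. Cell Ranger 2.0.0, GRCm38.p3 and mm10 appear in the submitters' processing notes; how cells were called and libraries merged is not given in the sources used here. Barcodes under 500 genes or over 10% mitochondrial UMIs were dropped, and doublets marked by Scrublet (11 in library 2, 15 in library 1) were removed. The 2000 most variable genes outside the gene lists entered 30 components, a graph of 15 neighbours and Leiden partition at resolution 1 (scanpy 1.11.5, leidenalg 0.10.2, Python 3.11.15), giving 17 clusters. A class name needed at least 3 markers, and at least 1 in 3 of the class's list, past 1.5-fold; this rule was set after the clusters were seen and revised 2 times. UMIs were summed per class and library. Exact Poisson, Clopper-Pearson and conditional ratio intervals cover counting error only. A gene counted as measured from 20 UMIs over both sides, and the 1.5-fold ratio is a size rule, not a test. Named genes are those with at least 100 UMIs, those past 1.5-fold (the 15 highest and 10 lowest), and, in lists, the most abundant and the extremes. Ratios were checked on simulated data. Members and lists were chosen with earlier results of these data known.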

Additional observations from a re-analysis of the deposited data

How the results depend on the processing

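No paired analysis was possible because each age has 1 library and no test was made. In quiescent or astrocyte-like cells, library 2 over library 1, the median log2 ratio over all genes of the list was 0.342. It was 0.007 in cluster 0 alone, -0.137 in cluster 8 alone and 0.09 without cluster 5. The median of motile cilium genes, 1.555, was 0.016 in cluster 0 alone, on 3 genes measured, and that of transport genes, 0.159, was -0.163 in cluster 8 alone. The count at least 1.5-fold higher, 13, was 7 with cells thinned to 2000 UMIs, 6 with at least 50 UMIs and 24 with at least 1 UMI. It was 2 in cluster 0 alone, 7 in cluster 5 alone, 6 in cluster 8 alone and 4 without cluster 5. No share of all genes is given for these settings, so these counts are not read against a background. Fewer UMIs or cells left fewer genes to measure in the thinned and cluster settings; beyond that the cause was not tested. The other 104 values stayed inside the interval of the value reported, or within 1.5 times the count; among them the transport median changed sign to -0.007 in cluster 0 alone. Adding cluster 3 to the class, and leaving cells with at least 5 motile UMIs out of each cluster, were chosen after seeing the data. The ratio of Cfap126 ran from 5.68 to 12.5 over its alternatives, that of Mlf1 from 2.95 to 10.0 and that of Foxj1 from 1.39 to 3.53, the lowest for Mlf1 and Foxj1 at Leiden resolution 2. Depth limits genes under 20 UMIs, for which no ratio is read.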

Other observations

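Foxj1 gave 8 UMIs in 8 of 99 oligodendrocyte-like cells of library 1, 18.6 CPM (8.02 to 36.6), above its 3.35 CPM in quiescent cells of that library. The 9 oligodendrocyte-like cells of library 2 had 0, where the floor of 3 UMIs stands at 62.6 CPM. The motile sum in oligodendrocyte-like cells was 41.8 CPM in library 2 and 30.2 in library 1, below that of quiescent cells in both.

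In cluster 3, the unnamed cluster led by stress response genes, Mlf1 had 44.9 CPM in library 2 and 18.9 in library 1, and 5 cells of library 2 and 2 of library 1 held at least 5 motile UMIs.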
